A study of Mus musculus with 24 samples.

Results

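*Rsph1* and 8 other genes of motile cilia or of the ciliated ependyma were followed in the mouse hypothalamus, to ask whether *Rsph1* was raised alone in *cast/cast* mice or together with other genes of the same cells. The genes were taken by name. Of the 9, the deposited table of 13998 genes holds 6, namely *Rsph1*, *Rsph4a*, *Rsph9*, *Foxj1*, *Ccdc153* and *Dynlrb2*. Expression of *Rsph3a*, *Rsph3b* and *Tmem212* was not analysed here, and only their reference sequences were used. *Rsph1* itself was chosen for its rise between the genotypes, so its values in that comparison are given as a description without a test.

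The 24 mice were adult male F2 animals, of which 12 were *cast/cast* over the subcongenic segment of Chr 17 and 12 were *b6/b6* there. Elsewhere in the genome both groups were *b6/b6*. They descended from 1 B6.CAST-17.1 male, which carried the CAST/EiJ segment, mated to C57BL/6J females, and they were first weighed at 10 to 16 weeks of age. The *cast/cast* mice had been selected for the highest and the *b6/b6* mice for the lowest intake of a carbohydrate/protein (C/P) diet in a 10 d choice test, so genotype and intake cannot be told apart between the groups. Hypothalami were taken about 48 h after both diets were offered again, following 4 h of fasting, and each mouse gave 1 SAGE-Seq library.

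Motile cilia beat by means of an axoneme, in which doublet microtubules carrying dynein arms surround a central pair. Radial spokes reach from each doublet to the central pair and help to control the beat. In the brain such cilia are borne in tufts by ependymal cells, which line the ventricles, including the third ventricle within the hypothalamus. RSPH1, RSPH4A and RSPH9 are proteins of the spoke head and RSPH3 of the spoke stalk. FOXJ1 is the forkhead transcription factor that switches on the motile cilium programme, DYNLRB2 is a roadblock light chain of dynein, and *Ccdc153* and *Tmem212* are used as ependymal markers.

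The assay reads 3′ tags of 27 bases from transcripts, so each value rests on short sequences. That tags begin at a CATG site was assumed here, and the tag counted for each gene is not given. The expected tags were read from GENCODE M21 transcripts of GRCm38 that are linked to RefSeq, as the sequence that starts at the CATG nearest the 3′ end. They are shown because a difference between the CAST and C57BL/6J alleles within a tag could alter its count. The CAST sequence was not read here, and this was not tested. The CATG is in capitals and each line runs 5′ to 3′ along the transcript.
Rsph1: CATGaacaaaaatcctgtgggccctgg
Rsph4a: CATGtgcacgcattctctttcctgggt
Rsph9: CATGctgtaggaaggcaggctggatat
Foxj1: CATGtaaagttctttacaataaaatgt
Ccdc153: CATGacaacctggactgtctactggcc
Dynlrb2: CATGatattgtaccctgactgagtcca
Rsph3a: CATGttgtcttactaataagaatcttg
Rsph3b: CATGacccatccaggctttacaaactg

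The *Rsph1* tag lies in coding sequence and spans the junction of exons 5 and 6 of 9, from 31261813 to 31265826 on the minus strand of Chr 17, 575 bases before the 3′ end of the transcript. The *Ccdc153* tag also lies in coding sequence, across exons 6 and 7 of 7 (Chr 9, 44245840 to 44246780). The *Rsph9* tag crosses the stop codon in exon 5 of 5 (Chr 17, 46129321 to 46129347). The tags of *Rsph4a* (Chr 10, 33915811 to 33915837), *Foxj1* (Chr 11, 116330734 to 116330760) and *Dynlrb2* (Chr 8, 116515784 to 116515810) lie in the 3′ UTR of the last exon. Each of these 6 tags occurred in transcripts of 1 gene. Those shown for *Rsph3a* and *Rsph3b* each occurred in transcripts of both genes, and the linked *Tmem212* transcript of 716 bases holds 0 CATG sites.

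*Rsph1* is the only measured gene of the 6 that lies within the CAST segment (Chr 17, 31255019 to 31277296, GRCm38). *Rsph9* lies on the same chromosome (46122038 to 46144242), and starts 0.392 Mb beyond the distal marker that bounds the segment. The allele that the *cast/cast* mice carry at *Rsph9* was not read here. *Rsph4a*, *Foxj1*, *Ccdc153* and *Dynlrb2* are on other chromosomes, where both groups of mice are *b6/b6*.

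Libraries held 7754202 to 13082873 tag hits on genes. Values below are normalized counts, that is, tag hits divided by the size factor of the library. Along the second principal component of 11257 genes off Chr 17 and outside the cilia and marker lists, which took 19.7% of the variance, *b6/b6* replicates 12 and 6 stood apart from the other 22 mice. These 2 libraries also had the lowest *Rsph1*, *Rsph9* and *Ccdc153* counts of all mice, so the comparisons of the 6 genes are given with and without them. Markers of the tissue were present, with *Pmch*, a neuropeptide gene of the lateral hypothalamus, at 7780 ± 3780 (mean ± SD, n = 12) among *cast/cast* and 8480 ± 5266 among *b6/b6* mice.

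*Rsph1* was 5.89 times higher in *cast/cast* than in *b6/b6* mice. In *b6/b6* mice it ranged from 9.79 to 63.7 with a median of 42.3 normalized counts (42.1 ± 15.1, n = 12), which is 9 to 66 tag hits. In *cast/cast* mice it ranged from 144.7 to 391.6 with a median of 228.1 (248.3 ± 72.1, n = 12), from 159 to 411 tag hits. The groups did not overlap, and the lowest *cast/cast* mouse was 2.27 times above the highest *b6/b6* mouse. How many of all genes have groups that do not overlap was not counted. On the log2 scale of normalized count + 1, used for all fold changes here, the difference was 2.60 with a standard error of 0.23, and 4 of the 13998 genes had a larger one. Without *b6/b6* replicates 12 and 6 it was 2.34, and the ratio of means was 5.25.

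Among the other spoke head genes, *Rsph9* was 1.22 times higher on average in *cast/cast* mice with overlapping groups, and *Rsph4a* varied widely within both groups. *Rsph9* ranged from 536.2 to 1364 with a median of 940.4 in *b6/b6* mice, and from 942.9 to 1484 with a median of 1085 in *cast/cast* mice. All 12 *cast/cast* mice were above the *b6/b6* median, but the groups overlapped, and 3 *b6/b6* mice were above the *cast/cast* median. The means were 941 ± 257 and 1147 ± 165 (n = 12 each), a log2 fold change of 0.33 (95% interval 0.04 to 0.61, limma *P* = 0.0279, Benjamini-Hochberg adjusted *P* over all genes = 0.586). Without *b6/b6* replicates 12 and 6 the log2 fold change of *Rsph9* was 0.20 (limma *P* = 0.112). With study number as a covariate it was 0.39 (limma *P* = 0.00926, adjusted *P* = 0.247), at the same ratio of 1.22.

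*Rsph4a* ranged from 135.9 to 1053 with a median of 545.6 in *b6/b6* mice, and from 342.0 to 1332 with a median of 423.2 in *cast/cast* mice. The ranges lay over each other, and 4 of 12 *cast/cast* mice were above the *b6/b6* median. Its log2 fold change was 0.16 (95% interval -0.49 to 0.81, limma *P* = 0.621, adjusted *P* = 0.895). The sign was not stable, with -0.03 when *b6/b6* replicates 12 and 6 were left out and -0.01 when *b6/b6* replicate 7, the mouse with the lowest *Rsph4a*, was left out.

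*Foxj1*, the regulator of the ciliary programme, averaged 800 ± 525 for *cast/cast* and 502 ± 354 for *b6/b6* mice (n = 12 each), a ratio of 1.59. It ranged from 95.02 to 1077 with a median of 447.5 in *b6/b6* mice, and from 138.9 to 1524 with a median of 660.7 in *cast/cast* mice. The highest mouse was about 11 times the lowest within either genotype, and 8 of 12 *cast/cast* mice were above the *b6/b6* median. The log2 fold change of *Foxj1* of 0.67 did not pass the test (95% interval -0.21 to 1.56, limma *P* = 0.132, adjusted *P* = 0.663). It was 0.42 (limma *P* = 0.351) without *b6/b6* replicates 12 and 6.

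The ependymal marker *Ccdc153* ranged from 42.4 to 231.1 with a median of 147.7 in *b6/b6* mice, and from 107.9 to 376.0 with a median of 214.5 in *cast/cast* mice. In 5 *cast/cast* mice it exceeded every *b6/b6* mouse, while the other 7 lay within the *b6/b6* range. Its means were 150.0 ± 56.6 and 226.3 ± 91.9 (n = 12 each), a ratio of 1.51 and a log2 fold change of 0.59 (95% interval 0.07 to 1.12, limma *P* = 0.0284, adjusted *P* = 0.586). The log2 fold change was 0.35 (limma *P* = 0.120) without *b6/b6* replicates 12 and 6. *Dynlrb2*, the scarcest of the 6 genes, ranged from 6.53 to 56.3 with a median of 28.3 in *b6/b6* mice, and from 9.50 to 78.6 with a median of 43.3 in *cast/cast* mice. The groups overlapped over most of their range, with a log2 fold change of 0.35 (95% interval -0.36 to 1.05, limma *P* = 0.322, adjusted *P* = 0.770). The *Dynlrb2* estimate was 0.13 (limma *P* = 0.692) without *b6/b6* replicates 12 and 6, and 0.00078 (limma *P* = 0.997) with the mean level of the ependymal cilia genes, *Dynlrb2* among them, as a covariate.

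**Figure D1:**
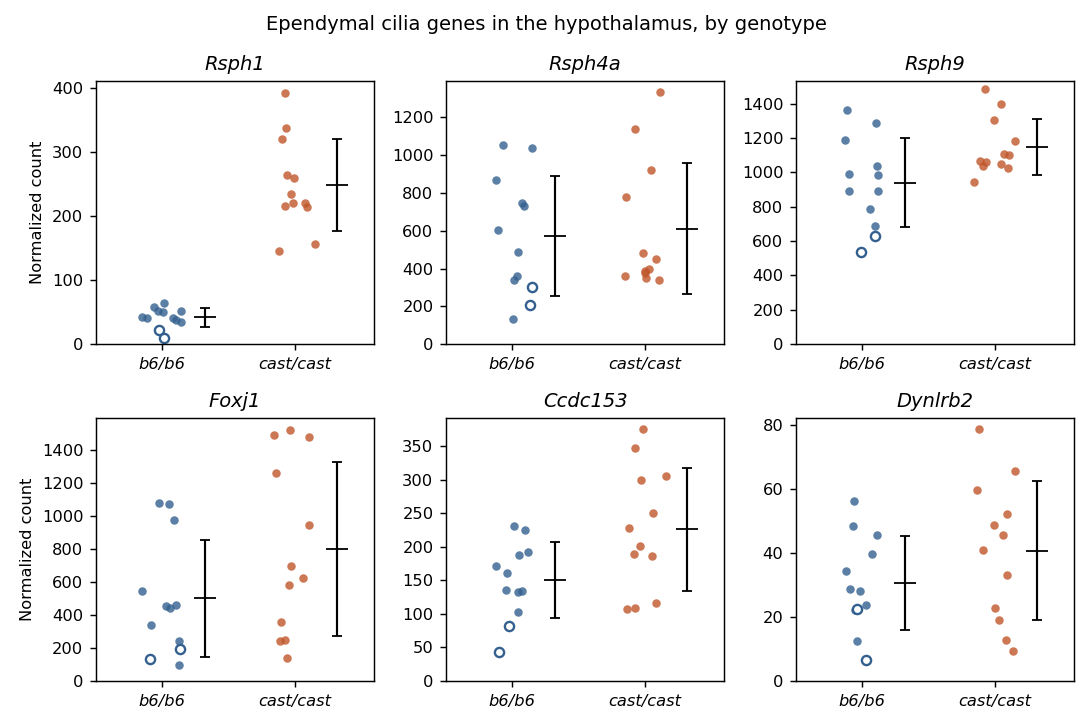
Normalized counts of the 6 genes in each of 12 *b6/b6* and 12 *cast/cast* mice, 1 point a mouse, with the mean and SD beside the points and open circles for *b6/b6* replicates 12 and 6. In the panel of *Rsph1*, which was chosen for its rise, *b6/b6* mice lie at 63.7 or below and *cast/cast* mice at 144.7 or above. The groups overlap in the other panels, and the share of all genes without overlap was not counted.

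Calls followed the thresholds of the study, with the limma *P* not above 0.01 before adjustment and means at least 1.5-fold apart. By this rule 0 of the 5 genes other than *Rsph1* were called, and 2 of the 5, *Rsph9* and *Ccdc153*, had an unadjusted *P* under 0.05. The number called was also 0 with edgeR and with DESeq2 on the recovered tag hits. An unadjusted *P* under 0.05 was reached by 1 of the 5 with edgeR and by 2 with DESeq2. With libraries rescaled to the same total it was reached by 0 (limma *P* = 0.0629 for *Rsph9* and 0.0613 for *Ccdc153*). Over all genes 1.49% were called in either direction and 0.471% as higher in *cast/cast*. Within the CAST segment, where *Rsph1* lies, 105 of 432 genes (24.3%) were called, against 0.713% of 13318 genes placed outside it, where the other 5 lie. At an adjusted *P* of at most 0.05, which 0 of the 5 reached, 0.572% of all genes were called.

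The estimates of all 5 were above 0, between 0.16 and 0.67 with a median of 0.35, beside a median of -0.02 over all genes. The direction was not kept under every alternative. *Rsph4a* turned to -0.0039 and *Dynlrb2* to -0.06 when 2 principal components of the libraries were covariates, and the median of the 5 was then 0.13. Without *b6/b6* replicates 12 and 6 that median was 0.20. The upper limits of the 95% intervals correspond to folds of 1.53 for *Rsph9*, 1.75 for *Rsph4a*, 2.07 for *Dynlrb2*, 2.18 for *Ccdc153* and 2.95 for *Foxj1*. On the same scale the interval of *Rsph1* ran from 4.36 to 8.43. As *Rsph1* was chosen for this difference, its interval is a description and no test against the others. In bulk tissue, fewer cells of a type and less RNA per cell cannot be told apart.

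As the assay was taken to count 1 tag per transcript, levels of different genes were compared without a correction for length. In *b6/b6* mice the order by mean was *Rsph9*, *Rsph4a*, *Foxj1*, *Ccdc153*, *Rsph1* and *Dynlrb2*. *Rsph4a* and *Foxj1* did not differ beyond their spread, as *Foxj1* was the higher in 5 of 12 *b6/b6* and 7 of 12 *cast/cast* mice. *Rsph1* was below *Ccdc153* in all 12 *b6/b6* mice but above it in 8 of 12 *cast/cast* mice, where their means of 248.3 and 226.3 lay within 1 SD of each other. *Rsph1* stayed below *Rsph9* and *Rsph4a*, the genes of its partners in the spoke head, in all 24 mice.

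The other genes of motile cilia, taken from 5 lists of measured genes that exclude the 9 above, had log2 fold changes of at most 0.99, beside 2.60 for *Rsph1*. Together the lists hold 97 genes, of which 2 were called, both higher in *cast/cast*, and 0 lower. The share called was 1.49% over all genes and 0.713% over those placed outside the CAST segment. Of the 97, 62 had a log2 fold change above 0 and 35 below, with a median of 0.05 and a lowest value of -0.73. Over all 13998 genes 6620 were above 0. At an unadjusted *P* under 0.05, 7 of the 97 were higher and 0 lower, against 526 higher and 612 lower over all genes. That split of the 97 became 3 higher and 3 lower when *b6/b6* replicates 12 and 6 were left out. It was 5 higher and 2 lower with libraries rescaled to the same total, and 16 higher and 1 lower with study number as a covariate.

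By role, 0 of 6 other radial spoke genes were called, with a median log2 fold change of -0.06. *Nme5*, a nucleoside diphosphate kinase family member and the most abundant of them, stood at 363 ± 94.5 for *cast/cast* and 353 ± 88.6 for *b6/b6* mice. Of 26 genes of axonemal dynein and its assembly 0 were called, with a median of 0.09. The light chain gene *Dnalc4* (RefSeq *Dnal4*), the most abundant, was at 803 ± 404 and 632 ± 238 (log2 fold change 0.23, limma *P* = 0.440). Of 11 regulators of multiciliated cells 0 were called, with a median of 0.03, and *Rfx3*, a transcription factor of ciliary genes, was at 369 ± 104 and 375 ± 84.1. Of 19 other ependymal markers 0 were called, with a median of 0.13. *Hdc*, the most abundant with 54.2% of the counts of this list, was at 1582 ± 636 and 1363 ± 297. Bulk tissue does not show which cells the *Hdc* tags came from, so the counts of this list need not be ependymal. *Cd24a*, a surface protein of ependymal cells, was at 391 ± 163 and 361 ± 124. With 1.49% of all genes called, a count of 0 in lists of these sizes cannot show that a role was unchanged.

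Both called genes belong to the list of 35 central pair, nexin link and other axonemal genes, whose median was 0.05. *Tekt4*, which encodes a filament protein of the doublet microtubules, was called as higher, with 184.7 ± 43.9 among *cast/cast* against 99.6 ± 27.4 among *b6/b6* mice (log2 fold change 0.91, limma *P* = 1.37e-05, adjusted *P* = 0.00299). All 12 *cast/cast* mice were above the *b6/b6* median, although the groups overlapped. Like *Rsph1*, *Tekt4* lies in the CAST segment (Chr 17, 25454549 to 25476602). *1700009P17Rik* (RefSeq *Cfap126*), which encodes the basal body protein Flattop and lies on Chr 1, rose from 286 ± 79.9 to 463 ± 164 (log2 fold change 0.69, limma *P* = 0.00248, adjusted *P* = 0.261). It was no longer called without *cast/cast* replicate 1, or without *b6/b6* replicates 12 and 6, which left 1 called gene of the lists in each case.

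**Figure D2:**
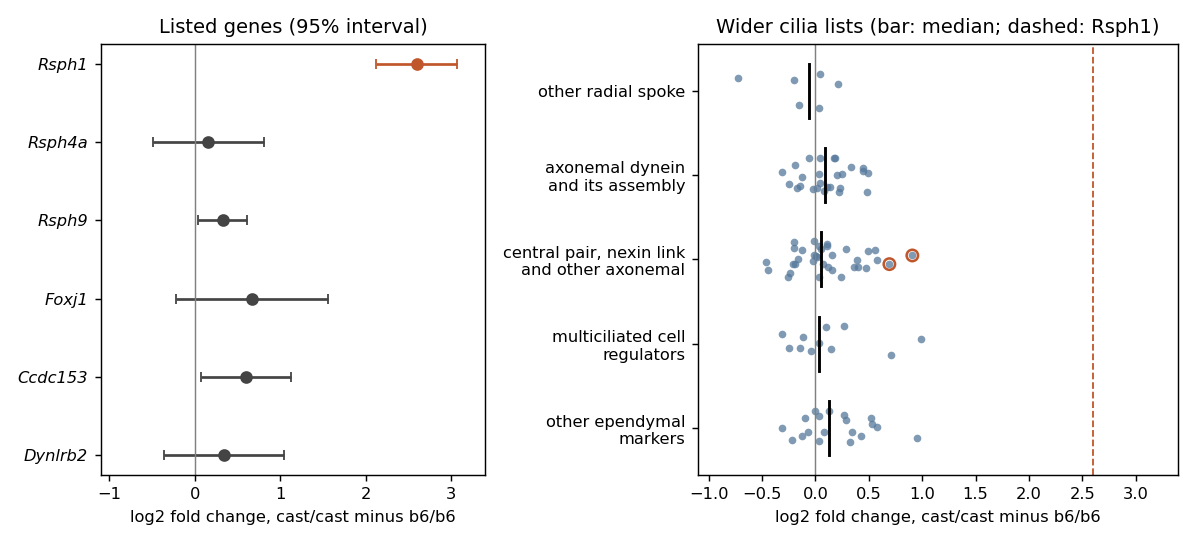
Log2 fold change, *cast/cast* minus *b6/b6*, of the 6 genes with 95% intervals (left) and of each measured gene of the 5 wider lists, 1 point a gene with a bar at the median (right). *Rsph1*, chosen for this difference and drawn as a dashed line at 2.60 on the right, lies beyond all 97 genes of the lists, and the rings mark *Tekt4* at 0.91 and *1700009P17Rik* at 0.69.

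*Rsph1* was also set against the sum of the other ependymal cilia genes in the same mouse, over 94 genes outside Chr 17. That sum averaged 23267 ± 4250 for *cast/cast* and 19580 ± 3854 for *b6/b6* mice, 1.19 times higher in *cast/cast* with overlapping ranges. Without *b6/b6* replicates 12 and 6 this ratio was 1.11, and the sum over all genes was itself 1.07 times higher in *cast/cast*. Per 100 summed counts, *Rsph1* made up 1.08 ± 0.29 in *cast/cast* mice, from 0.50 to 1.55, and 0.21 ± 0.06 in *b6/b6* mice, from 0.09 to 0.31. The groups did not overlap, but *Rsph1* was chosen for its rise, so this is a description and no test. The share of all genes without overlap was not counted. The ratio of means was 5.18. It was 4.61 against the 4 listed genes outside Chr 17 alone and 4.80 without *b6/b6* replicates 12 and 6. About 50.3% of the counts of the 5 lists came from *Tppp3*, a tubulin polymerisation protein that oligodendrocytes also express, and leaving it out of the sum gave 5.33. *Hdc*, whose cells of origin were not identified here, was kept in the sum, and leaving it out was not tried. With the mean log2 level of the ependymal cilia genes as a covariate, the log2 fold change of *Rsph1* was 2.51.

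**Figure D3:**
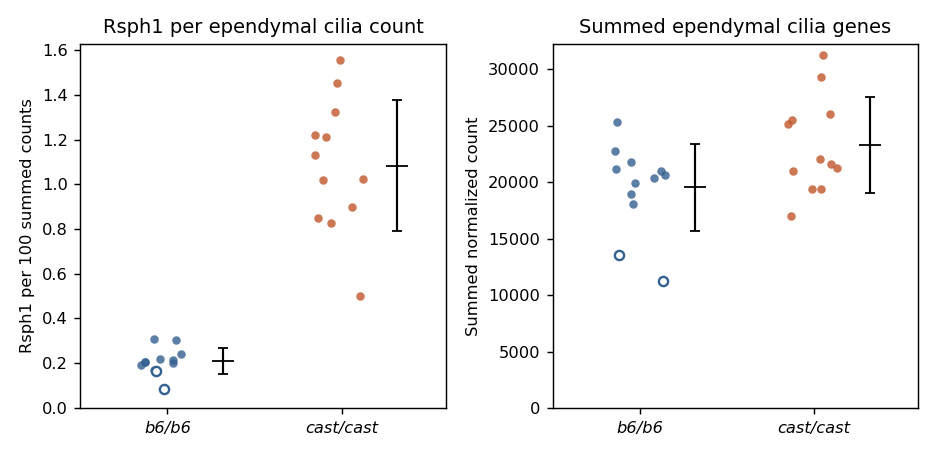
*Rsph1* per 100 summed normalized counts of 94 ependymal cilia genes outside Chr 17 (left) and that sum itself (right), 1 point a mouse with the mean and SD, and open circles for *b6/b6* replicates 12 and 6. The sums overlap between the genotypes. *Rsph1*, which was chosen for its rise, is at most 0.31 per 100 counts in *b6/b6* and at least 0.50 in *cast/cast* mice. The share of all genes without overlap was not counted.

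Other cell types that border the ventricle, and the main cell types of the tissue, were followed by marker lists. The summed level of 9 choroid plexus genes ran from 1198 to 2596 among *cast/cast* and from 1153 to 2163 among *b6/b6* mice, and that of 11 tanycyte genes 1110 to 3114 and 1231 to 4177. In both lists 0 genes were called and 0 had a median of 0 tag hits. *Ttr*, the transthyretin gene that defines choroid plexus, was at 0.91 to 46.3 in 23 mice and at 268.3 in *cast/cast* replicate 3, where *Rsph1* was 337.9. Without that mouse the log2 fold change of *Rsph1* was 2.55. None of the 10 astrocyte, 10 oligodendrocyte, 10 neuron, 10 microglia and 11 hypothalamic neuropeptide genes was called, with medians between -0.11 and 0.05. Of 42 genes of intraflagellar transport and the primary cilium, which most cell types carry, 0 were called, with a median of -0.12. With 1.49% of all genes called, counts of 0 in lists of these sizes cannot show that a cell type was unchanged.

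Of the 3 nearest measured genes on either side of *Rsph1*, 0 of 6 were called as higher in *cast/cast* and 2 as lower. Over the CAST segment 5.79% of genes were called as higher and 18.5% as lower. *Slc37a1*, which starts 17.8 kb beyond *Rsph1*, stood at 367 ± 60.7 for *cast/cast* and 327 ± 136 for *b6/b6* mice (log2 fold change 0.28, limma *P* = 0.176). *Abcg1*, *Dnahc8* and *Wdr4* were not called either, with log2 fold changes of 0.03, -0.40 and 0.35. *Dnahc8* encodes an axonemal dynein heavy chain. The 2 called genes were *Pde9a*, at 164 ± 111 in *cast/cast* against 288 ± 94.7, and *Umodl1*, at 1.12 ± 1.75 against 14.7 ± 9.36.

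Variation among mice of 1 genotype does not depend on the comparison that chose *Rsph1*, and was used to ask whether *Rsph1* follows the other genes from mouse to mouse. In *b6/b6* mice *Rsph1* correlated with *Rsph9* (Pearson's r = 0.80, permutation *P* = 0.00062, adjusted over the 10 correlations 0.0062), with Spearman's rho of 0.71 (permutation *P* = 0.0119, adjusted 0.119). It correlated with *Ccdc153* (r = 0.84, permutation *P* = 0.00408, adjusted 0.0204) and with *Dynlrb2* (r = 0.76, permutation *P* = 0.00946, adjusted 0.0315), for which rho was 0.41 (permutation *P* = 0.184) and 0.51 (permutation *P* = 0.0946). With *Rsph4a* (r = 0.54, permutation *P* = 0.0645) and *Foxj1* (r = 0.49, permutation *P* = 0.104) the correlation did not pass, and rho was 0.45 (permutation *P* = 0.149) and 0.29 (permutation *P* = 0.367).

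These relations were weaker without *b6/b6* replicates 12 and 6, which are the 2 mice farthest from the *b6/b6* median of *Rsph1*. Without them r was 0.53 for *Rsph9*, 0.36 for *Dynlrb2*, 0.28 for *Rsph4a*, 0.13 for *Ccdc153* and 0.03 for *Foxj1*, and 0 of the 5 passed. Leaving out the lowest *Rsph1* values also narrows its range, so the fall in r cannot show whether the relations depend on these 2 mice. In *cast/cast* mice 0 of the 5 correlations passed. There r was 0.30 for *Ccdc153* (permutation *P* = 0.340, rho = 0.27, permutation *P* = 0.392) and 0.13 for *Rsph9* (permutation *P* = 0.698, rho = 0.06, permutation *P* = 0.869). It was 0.04 for *Dynlrb2* (permutation *P* = 0.912, rho = 0.06, permutation *P* = 0.871), 0.03 for *Rsph4a* (permutation *P* = 0.923, rho = 0.12, permutation *P* = 0.714) and -0.10 for *Foxj1* (permutation *P* = 0.749, rho = -0.13, permutation *P* = 0.701). Without *cast/cast* replicates 5 and 8, the farthest from the median of *Rsph1*, these r lay between -0.24 and 0.06. The difference in correlation between the genotypes was not tested.

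**Figure D4:**
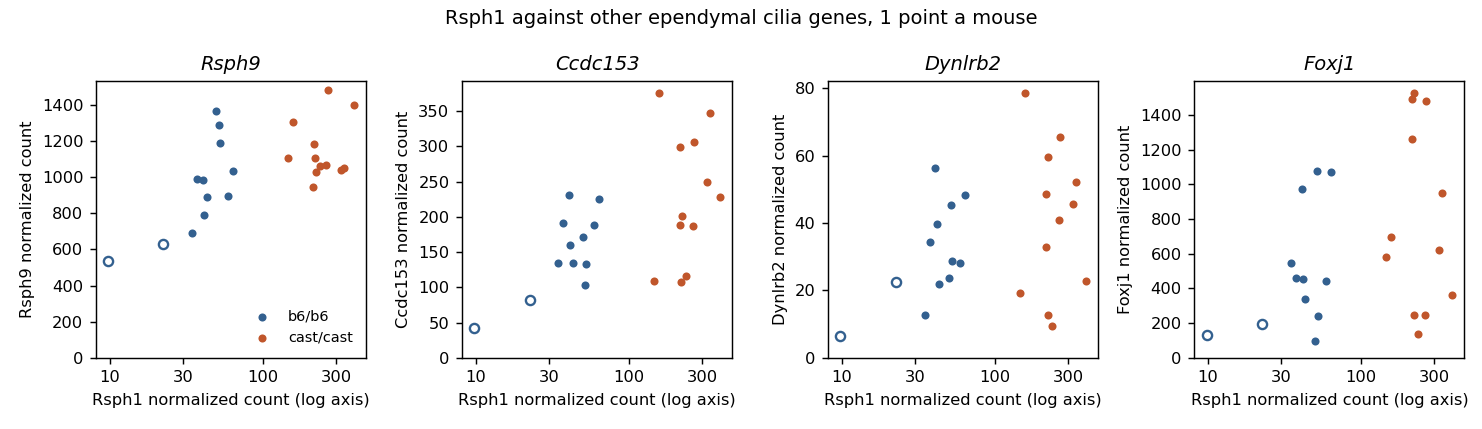
*Rsph1* normalized count on a log axis against that of *Rsph9*, *Ccdc153*, *Dynlrb2* and *Foxj1* on linear axes, 1 point a mouse, with open circles for *b6/b6* replicates 12 and 6. The 2 open circles are the *b6/b6* mice with the lowest *Rsph1*, and among the *cast/cast* points, at 144.7 or above for *Rsph1*, r is between -0.10 and 0.30 in the 4 panels.

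Over all 24 mice, after the mean of each genotype was subtracted, the 9 genes most like *Rsph1* in log2 level were *Erh* (r = 0.83), *Ttc8* (0.83), *Hdhd3* (0.83), *2310039H08Rik* (0.83), *Arl3* (0.82), *Cnst* (0.81), *Mex3a* (0.80), *Tspan13* (0.80) and *Hnrnpd* (0.80). *Ttc8*, a subunit of the BBSome, and *Arl3*, a small GTPase of the ciliary membrane, act in primary cilia, and 0 of these 9 are motile axoneme genes of the lists. Among 13997 genes *Rsph9* ranked 371 (r = 0.65), *Ccdc153* 456 (0.63), *Dynlrb2* 1691 (0.45), *Rsph4a* 2293 (0.38) and *Foxj1* 3569 (0.26). The median r was 0.19 over the 97 wider cilia genes and -0.02 over all genes. Over the 42 genes of intraflagellar transport and the primary cilium, *Arl3* among them, it was -0.13, and 19 of the 42 were positive. All points share libraries, and *Rsph1* itself had an r of -0.70 with the second principal component of the libraries, so these values are descriptions.

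The 6 genes did not vary as 1 block. *Ccdc153* and *Dynlrb2* had an r of 0.81 with each other, and *Foxj1* an r of 0.71 with *Dynlrb2* and 0.56 with *Ccdc153*. *Rsph4a* had negative values with these 3, of -0.31 with *Foxj1*, -0.13 with *Ccdc153* and -0.37 with *Dynlrb2*, and an r of 0.86 with the first principal component, which took 36.8% of the variance. *Rsph1* and *Rsph9*, at 0.65, were the closest pair among the spoke head genes, with r of 0.80 in *b6/b6* but 0.13 in *cast/cast* mice. All values here include *b6/b6* replicates 12 and 6, which stand apart on the second principal component. With that component *Ccdc153* had an r of -0.86 and *Dynlrb2* of -0.82.

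The study selected the mice on C/P intake, so only the relation within a genotype was examined. In *b6/b6* mice, which ate 27.4 to 41.0 kcal of C/P over 10 d, *Rsph1* correlated with C/P intake (r = 0.79, permutation *P* = 0.00434, adjusted over the 2 genotypes 0.00868, rho = 0.65, permutation *P* = 0.0267, adjusted 0.0534). The lowest intake, 27.4 kcal, was that of *b6/b6* replicate 12, which also had the lowest *Rsph1* (9.79) and the fewest tag hits (7754202) of all mice. Without *b6/b6* replicates 12 and 6 r was 0.47, over a narrower range of *Rsph1* and of intake. Whether the relation depends on those mice was not tested. In *cast/cast* mice, which ate 77.8 to 106.6 kcal, r was -0.35 (permutation *P* = 0.267, rho = -0.12, permutation *P* = 0.710), and 0.16 without *cast/cast* replicates 5 and 8.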

How the data were processed

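SAGE-Seq libraries of the hypothalamus of 24 F2 mice, 12 per genotype, were analysed. Replicate numbers are names only, given within each genotype in the order of the labels. The authors made 27 base tag libraries with a SOLiD SAGE kit, aligned the tags to RefSeq mRNA and GRCm38/mm10, divided tag hits by DESeq size factors and deposited these normalized values, a signal per gene and mouse. The deposited comparison columns (fold change, log2 fold change, p-value and adjusted p-value) were not used. All values (100%, within 0.1 of a whole number) were whole multiples of 1 step per library, which gave back 7754202 to 13082873 tag hits per mouse. Counting error alone would leave 3 tag hits as the floor, which is 2.36 to 3.81 normalized counts. Each of 13998 genes in 19529 rows was used 1 time, and no 2 libraries agreed within sampling noise (lowest chi-square per degree of freedom 14.6 over 276 pairs).

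Genes with a mean of at least 5 were fitted with limma 3.58.1 (eBayes with trend) on log2(normalized count + 1) without a covariate in R 4.3.3, with Benjamini-Hochberg adjustment over all genes. Positions came from RefSeq for 13681 genes and from the deposited table for 69, and 248 were left unplaced. Correlations were Pearson's r and Spearman's rho of log2 values with two-sided permutation tests of 100000 resamples, adjusted within each family, and r again without the 2 mice farthest from the *Rsph1* median. The genes named were all listed genes, the 10 genes most correlated with *Rsph1* (of which 1 is not reported here) and with *Foxj1*, in each wider list every called gene and the 2 with the highest mean (of which the text gives those that bear on a result), and the 3 nearest measured genes on either side of *Rsph1*. The members and lists were chosen with earlier results of these data known.

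Alternatives changed the pseudocount (0.5 or 5), the lowest mean allowed (20), the scaling (every library to 1 total) and the tool (quasi-likelihood test of edgeR 4.0.16 with TMM, or DESeq2 1.42.0, on the tag hits). Others took study number or ependymal level as a covariate, an adjusted P of at most 0.05, and each mouse left out. The 2 principal components, the fits without 2 libraries and the sum without *Tppp3* were added after the data were seen. With limma tested on simulated data of 13986 genes, 75% of 100 genes changed by 1 on the log2 scale and 95% of 100 genes changed by 2 were called, and 0.53% of unchanged genes. Scripts ran in Python 3.11.15 (scipy 1.17.1, numpy 2.4.6, pandas 2.3.3, and matplotlib 3.10.9 for plots). Since tags have no molecular identifiers, the floor does not cover amplification.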

Additional observations from a re-analysis of the deposited data

How the results depend on the processing

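The log2 fold change of *Rsph1* stayed between 2.24, with 2 principal components as covariates, and 2.71, with study number as a covariate, and between 2.43 and 2.67 with each mouse left out. The number of the other 5 genes called was 0 under all alternatives, and from 0 to 0 with each mouse left out. Signs turned for *Rsph4a* with 2 principal components (-0.0039), without the 2 libraries farthest on the second component (-0.032) and without *b6/b6* replicate 7 (-0.0068), and for *Dynlrb2* with 2 principal components (-0.058), and the cause was not tested. With each mouse left out the ranges were -0.01 to 0.26 for *Rsph4a*, 0.26 to 0.38 for *Rsph9*, 0.49 to 0.87 for *Foxj1*, 0.44 to 0.68 for *Ccdc153* and 0.17 to 0.50 for *Dynlrb2*. Of the wider lists 1 gene was called at an adjusted P of at most 0.05 and 1 without the 2 far libraries, against 2, and 1 to 3 with each mouse left out (1 without *cast/cast* replicate 1, and 3 without *cast/cast* replicate 6 and with DESeq2, by the addition of *Capsl*). Rescaling the libraries moved the median of all genes from -0.02 to -0.11 and the median of the 97 cilia genes to -0.01.

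Within *b6/b6* mice the correlations of *Rsph1* no longer passed without the 2 mice farthest from its median, which are also the 2 far libraries (0.53 for *Rsph9*, 0.13 for *Ccdc153*, 0.36 for *Dynlrb2*), or as residuals on 2 principal components (0.34, 0.31 and 0.62). Within *cast/cast* mice, where none passed, signs turned without the 2 farthest mice for *Rsph4a* (-0.057), *Rsph9* (-0.24) and *Dynlrb2* (-0.010), with residuals on 2 principal components for *Rsph9* (-0.13) and *Dynlrb2* (-0.36), and with rescaled libraries for *Rsph4a* (-0.16) and *Foxj1* (0.078). The correlation with intake in *b6/b6* mice was 0.62 for the share of kcal from C/P (adjusted P 0.0713). No paired analysis was possible because the labels give no shared replicate numbers. At 6 to 58 tag hits per *b6/b6* mouse, *Dynlrb2* was the least precisely counted of the 6 genes.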

Other observations

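The genes most like *Foxj1* over the 24 mice, after the mean of each genotype was subtracted, were *Frmd4b* (r = 0.89), *Bcl7b* (0.88), *1700034H14Rik* (0.86), *Atp5g3* (0.86), *Cyb5r4* (0.86), *Rab1* (0.85), *Spire2* (0.85), *Elp4* (0.84), *Atp6v1b2* (0.84) and *Elmod1* (0.84). None of these 10 is in the cilia lists. *Dynlrb2* ranked 199 of 13997 genes by this measure, *Ccdc153* 1134, *Rsph1* 3862 (r = 0.26), *Rsph9* 4757 (0.17) and *Rsph4a* 10623 (-0.31). Across the 97 wider cilia genes the median r with *Foxj1* was 0.22, and the highest was that of *Dnalc4* at 0.78.

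Promoters of 300 bases from RefSeq on GRCm38 were searched on both strands for the RFX X-box, the site of the RFX factors of ciliary genes, and for the forkhead motif GTAAACA. The table holds 6 of the 9 listed genes, *Rsph3a*, *Rsph3b*, *Rsph9*, *Ccdc153*, *Dynlrb2* and *Tmem212*. In these 6 there were 0 matches to either motif, beside 2.17% of all 32851 promoters for the X-box and 3.65% for the forkhead motif. This says only that these letters are not in the windows.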
